A study of Mus musculus with 4 samples.

Results

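The 97 genes described here encode subunits of the 5 complexes of oxidative phosphorylation, out of 35275 genes in the count table. They are the protein-coding genes whose symbols begin with the subunit names of complexes I to V, in nuclear and in mitochondrial DNA; 98 such entries stand in GENCODE release M21, and a second entry for Atp5o was not analysed here. Of the 97, 84 are nuclear (37 in complex I, 4 in complex II, 8 in complex III, 18 in complex IV and 17 in complex V) and 13 are mitochondrial (7, 0, 1, 3 and 2 in the same order). Genes were placed by symbol, so Ndufa4, which purified complexes place in complex IV, stands with complex I, and Cox7a2l, which joins complexes III and IV, and Atp5s, a coupling factor, are kept. RNA was sequenced from thymocytes of untreated C57BL/6 mice 6 to 8 weeks old. Of the 4 libraries, 2 were labelled Uba3ΔT (KO; Uba3 deleted in T cells) and 2 Uba3F/F (WT). In each genotype, 1 library came from group 3 (TCRβhi CD69hi) and 1 from group 2 (TCRβint CD69hi), sorted populations of the thymus that follow each other in T cell selection. Uba3 encodes part of the E1 enzyme for NEDD8, a ubiquitin-like protein, and the question of the design is how its deletion in T cells alters gene expression at both steps. Age and strain are the same for all 4 groups, and the labels do not say how many mice gave a library.

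Oxidative phosphorylation turns the electrons of NADH and succinate into ATP. Complexes I and II pass electrons to ubiquinone, complex III passes them to cytochrome c, complex IV passes them to oxygen, and complex V, the ATP synthase, makes ATP from the proton gradient that complexes I, III and IV build. Mitochondrial DNA encodes core subunits of complexes I, III, IV and V, all of complex II is nuclear, and the remaining nuclear genes supply further core subunits and the small accessory subunits. In the thymus, developing T cells are known to shift between glycolysis and respiration as they proliferate, rest and are selected.

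The promoters of nuclear subunit genes are known for sites of NRF1 and of the ETS family factor GABP. Promoter windows from RefSeq (GRCm38.p6, 250 bases before to 50 after the start) matched 68 of the 84 nuclear members by symbol. On either strand, the NRF1 motif, of 10 bases with 1 free position, stood in 17 of the 68 (25%), against 5.19% of 27025 genes. The ETS motif CCGGAAG stood in 16 (23.5%, against 9.93% of all) and the SP1 motif GGGCGG in 28 (41.2%, against 38.2%). The YY1 motif of 11 bases stood in 4, all of complex I (5.88%, against 0.755%). Matches of different motifs could overlap and were counted apart. Shown are the windows of Atp5k and Atp5e, members of complex V with wide differences between the libraries, and of Uqcrc1, the nuclear member called between the sorted groups. Capitals mark NRF1 and ETS matches (CTTCCGG is the ETS motif on the other strand), and a match is a description of letters, not of binding.
Atp5k, chr5:108434350-108434649, minus strand: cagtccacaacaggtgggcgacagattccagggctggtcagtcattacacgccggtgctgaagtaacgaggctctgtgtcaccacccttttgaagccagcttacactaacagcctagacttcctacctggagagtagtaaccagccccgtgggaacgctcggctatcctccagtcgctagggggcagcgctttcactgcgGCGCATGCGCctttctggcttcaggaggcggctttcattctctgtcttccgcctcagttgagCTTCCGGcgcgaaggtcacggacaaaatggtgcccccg
Atp5e, chr2:174464052-174464351, minus strand: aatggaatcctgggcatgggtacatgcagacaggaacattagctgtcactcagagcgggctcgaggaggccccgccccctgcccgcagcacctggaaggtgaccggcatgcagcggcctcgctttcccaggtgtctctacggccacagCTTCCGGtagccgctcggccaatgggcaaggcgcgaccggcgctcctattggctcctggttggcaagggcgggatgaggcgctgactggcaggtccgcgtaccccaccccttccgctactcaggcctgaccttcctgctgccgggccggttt
Uqcrc1, chr9:108936398-108936697, plus strand: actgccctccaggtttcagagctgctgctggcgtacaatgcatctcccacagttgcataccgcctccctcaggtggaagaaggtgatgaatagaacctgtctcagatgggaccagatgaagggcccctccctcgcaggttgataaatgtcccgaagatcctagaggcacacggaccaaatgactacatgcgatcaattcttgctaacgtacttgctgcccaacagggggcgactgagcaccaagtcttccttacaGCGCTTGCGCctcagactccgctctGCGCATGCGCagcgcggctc
The Uqcrc1 window held 2 NRF1 matches, that of Atp5k held 1 NRF1 and 1 ETS match, and that of Atp5e held 1 ETS match.

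The tables held between 8043077 and 10299863 counts per library, and 12490 genes, 89 of the 97 members among them, reached 2 CPM (counts scaled to library size with TMM factors) in at least 1 library and were measured. The titles crossed genotype with sorted group, while another label field places the 2 WT libraries in group 2 and the 2 labelled KO in group 3; the titles were used. The summed CPM of 6 markers of mature thymocytes stood at 2062 in the library labelled KO and 1909 in WT of group 3, against 1081 and 963 in group 2. The 6 markers of immature double-positive thymocytes summed to 3837 and 4961 CPM in group 3 and 4856 and 5358 CPM in group 2, lower in the library labelled KO in each. Uba3 itself went against the label. Its counts, which cannot separate deleted from kept exons, were 2.06-fold (95% counting interval 1.82 to 2.34) and 1.70-fold (1.504 to 1.919) those of WT in the libraries labelled KO of group 3 and group 2. Every direction below is therefore that of libraries labelled KO. T cell markers were high in all 4 libraries (13220 to 16290 summed CPM). The 6 neutrophil markers summed to 41.2 CPM in the group 3 library labelled KO and to at most 1.33 CPM in the others. Sums of 6 erythroid markers ranged between 360.5 and 537.7 CPM, highest in the group 2 library labelled KO. Those of 6 B cell markers ranged between 191.9 and 310.7 CPM, and those of 8 macrophage and dendritic cell markers between 201.0 and 271.8 CPM. Both of these sums were higher in the library labelled KO in each sorted group. The part of these cells and of maturity in the results was not tested, and in bulk RNA fewer cells of a type and less RNA per cell cannot be told apart. With 1 library per group, a ratio of 2 libraries carries an exact binomial interval that covers counting error only, and no p-value.

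Levels between genes were compared per length, as the deposited RPKM (reads scaled by gene length and library size). The genes for the beta and alpha subunits of the ATP synthase were the highest nuclear members. Atp5b, which encodes the catalytic beta subunit, had 2606 RPKM in the group 3 library labelled KO and 2696 in WT group 3. In group 2, Atp5b had 2712 RPKM in the library labelled KO and 2466 in WT. Its partner alpha subunit gene Atp5a1 averaged 916.9 RPKM over the 4 libraries. Both genes stood above every other nuclear member in all 4 libraries. In the other complexes the highest nuclear genes were Cox4i1 of complex IV (a mean of 531.4 RPKM), the flavoprotein gene Sdha of complex II (438.3), the core protein gene Uqcrc2 of complex III (351.6) and Ndufs3 of complex I (219.2). Median levels over nuclear members were 91.9 RPKM in complex I, 247.8 in complex II, 173.6 in complex III, 97.1 in complex IV and 240.2 in complex V. These medians include genes that were not measured. Under 5 RPKM on average lay 6 of the 18 genes of complex IV and 2 of the 37 of complex I. The complex IV median is lowered by them and is not that of its measured genes.

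The isoform sets of complex IV showed which versions of a subunit these thymocytes transcribed. Cox6a1 (a mean of 388.2 RPKM), Cox7b (99.6) and Cox8a (200.2) were the high members of their sets. Cox7a2 (96.8) stood above Cox7a1, and Cox7a2l, listed in the same set, averaged 180.8 RPKM. The heart, muscle or testis counterparts Cox6a2, Cox7a1, Cox7b2 and Cox8c had between 0 and 10 counts in every library. Cox8b and Ndufa4l2 had 0 counts in all 4 libraries, which allows up to 3 counts in each, while Ndufa4 averaged 192.6 RPKM. Among the 3 genes for the same c subunit of the ATP synthase ring, Atp5g3 averaged 526.0 RPKM, Atp5g2 119.4 and Atp5g1 44.3. By counts Atp5g1 stood above Atp5g2 in all 4 libraries, so their order rests on the deposited lengths, 2666 bp for Atp5g1 and 640 bp for Atp5g2. The 8 members that were not measured were mt-Nd3, mt-Nd4l, Ndufa4l2, Cox6a2, Cox7a1, Cox7b2, Cox8b and Cox8c, and they enter no ratio below.

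Between genotypes, the nuclear members leaned in opposite directions in the sorted groups. The median log2 ratio of the library labelled KO over WT was 0.35 in group 3 and -0.16 in group 2 over the 78 measured nuclear members, against -0.01 and 0.00 over all 12490 genes. In group 3, 57 of the 78 stood higher in the library labelled KO with an interval excluding 1 and 9 stood lower, where 24.5% and 23.7% of all measured genes did. In group 2, 15 stood higher (27.3% of all genes) and 43 lower (25.8%). A counting interval narrows as counts rise, so these shares, and those of the same kind below, also depend on the counts of a gene. In group 3 the interval covered 1 for 12 of the 78 members and for 6471 of the 12490 genes. The shift was shared by complexes I, III, IV and V, with medians of 0.34, 0.44, 0.39 and 0.21 in group 3 and of -0.18, -0.14, -0.23 and -0.07 in group 2. Complex II, whose 4 genes also serve the tricarboxylic acid cycle, stood near 0 by its medians, -0.05 in group 3 and 0.01 in group 2. Sdha stood at log2 -0.18 and -0.07 and Sdhb, the iron-sulfur subunit, at 0.07 and 0.16, while the membrane anchors Sdhc and Sdhd lay between -0.08 and 0.09. Summed over all nuclear members, the share of a library's counts was 1.41% in the group 3 library labelled KO (95% exact binomial interval 1.40 to 1.41), 1.34% in WT group 3 (1.33 to 1.35), 1.39% in the group 2 library labelled KO (1.38 to 1.40) and 1.39% in WT group 2 (1.39 to 1.40). These shares are not TMM-scaled, unlike the ratios. In TMM-scaled CPM the nuclear members summed to 14310 in the library labelled KO and 13190 in WT of group 3, and to 14100 and 13680 in group 2. By this sum the library labelled KO stood higher in group 2 as well, unlike the median there. Such sums are carried by the abundant subunits, and Atp5b alone stood at log2 0.00 in group 3 and 0.19 in group 2.

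**Figure D1:**
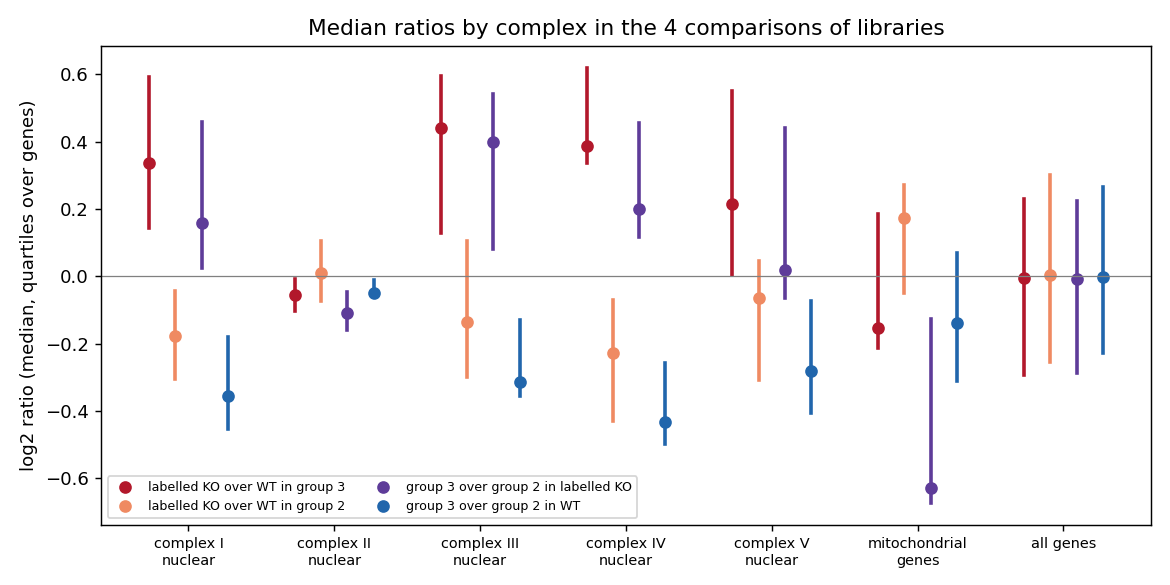
Median log2 ratios (points) with the quartiles over genes (lines) for the measured nuclear members of each complex, for the measured mitochondrial members and for all 12490 genes, in the 4 comparisons of libraries. Complexes I, III, IV and V lie above 0 for the library labelled KO over WT in group 3 and below 0 in group 2, complex II lies near 0, and the mitochondrial medians of group 3 over group 2 are -0.63 in the libraries labelled KO and -0.14 in WT.

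A set of 16 members stood higher in the library labelled KO by at least 0.32 on the log2 scale in group 3 and lower by as much or more in group 2, with both intervals excluding 1. That is 17.98% of the 89 measured members, where 1.41% of all measured genes did so; 0 members did the reverse, against 2.88% of all genes. A difference between 2 ratios of single libraries has no test here. They are Ndufa1, Ndufb2, Ndufb3, Ndufb4 and Ndufc1 of complex I; Uqcr11 and Uqcrq of complex III; Cox6b1, Cox6c, Cox7a2, Cox7b and Cox7c of complex IV; and Atp5e, Atp5j2, Atp5k and Atp5mpl of complex V. All of these encode small nuclear subunits, and none of the 16 is a mitochondrial gene or a subunit that carries a redox centre or a catalytic site. The set is described by its rule, and its log2 ratios ran between 0.34 and 1.17 in group 3 and between -0.72 and -0.33 in group 2.

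Atp5k (ENSMUSG00000050856, chr5:108433244-108434448 in mm10), subunit e of the ATP synthase, had 16.4 CPM in the group 3 library labelled KO and 6.99 in WT group 3, and 8.95 CPM in the group 2 library labelled KO and 13.2 in WT group 2. The ratios were 2.34 (1.72 to 3.23) in group 3 and 0.676 (0.506 to 0.897) in group 2, so the group 3 library labelled KO and WT group 2 were the high ones. Atp5e, the epsilon subunit of the rotor stalk, had 61.3 and 35.9 CPM in the library labelled KO and in WT of group 3, and 33.8 and 52.0 CPM in group 2. Its ratios were 1.71 (1.48 to 1.97) and 0.649 (0.561 to 0.749). Atp5mpl, a small proteolipid of the same complex, had 27.4 and 13.2 CPM in group 3 and 20.1 and 25.4 CPM in group 2, the library labelled KO given before WT in each. Ndufa1, an accessory subunit of the complex I membrane arm, followed the same order of libraries, with 33.3 and 18.5 CPM in group 3 and 21.6 and 29.0 CPM in group 2. Ndufb2, another accessory subunit of that arm, had the widest difference between its 2 log2 ratios, 1.86, from 55 and 19 counts in group 3 and 29 and 60 counts in group 2. Ndufb2 overlaps Gm16272 and Braf on the other strand, and the strand setting of the counting is not given in the sources used here, so its reads may be shared.

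**Figure D2:**
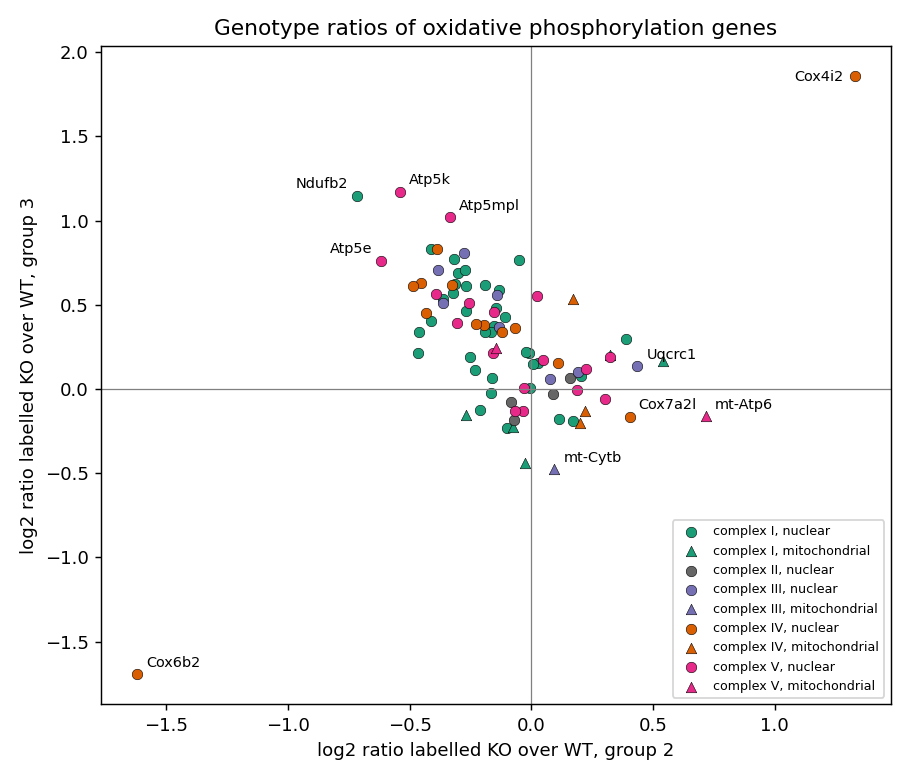
Each point is 1 of the 89 measured members, with the log2 ratio of the library labelled KO over WT in group 2 on the x axis and in group 3 on the y axis, coloured by complex, circles for nuclear and triangles for mitochondrial genes. Most nuclear members lie in the upper left, with Atp5k, Ndufb2 and Atp5mpl highest there on the group 3 axis, while Cox6b2 (-1.69 in group 3 and -1.62 in group 2) and Cox4i2 (1.86 and 1.33) lie apart on the diagonal.

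In group 3, most of the core and catalytic subunits named here lay closer to 0 than the nuclear median of 0.35. Ndufs1, which carries iron-sulfur clusters of complex I, had log2 ratios of -0.13 in group 3 and -0.21 in group 2, the lowest mean among nuclear members of complex I. The NADH-binding subunit gene Ndufv1 stood at -0.23 and -0.10. In complex III, the Rieske iron-sulfur protein gene Uqcrfs1 stood at 0.10 and 0.19, and the core proteins Uqcrc1 and Uqcrc2, with the highest and the lowest mean among nuclear members of the complex, at 0.14 and 0.43 and at 0.06 and 0.08. Cox4i1 stood at 0.16 and 0.11, and Cox5a at 0.36 and -0.07. Atp5a1 stood at -0.06 and 0.30, and Atp5f1, which encodes the b subunit of the stator and had the lowest mean among nuclear members of complex V, at -0.13 and -0.07. The exception in group 3 was Cox5a. In group 2, where the nuclear median was -0.16, Ndufs1, Uqcrfs1, Uqcrc1 and Atp5a1 lay further from 0 than that median. Ndufb7, an accessory subunit with the highest mean among nuclear members of complex I, had 96.4 and 56.5 CPM in the library labelled KO and in WT of group 3 and 74.2 and 77.0 CPM in group 2.

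The opposite shifts moved with gene length, taken as the length behind the deposited RPKM. The 9 nuclear members of up to 500 bp lay at a median log2 ratio of 0.77 in group 3, against 0.09 for the 20 members over 1000 bp, and at -0.34 in group 2, against -0.04. Protein-coding genes outside the set showed the same order of lengths, with medians of 0.33 and -0.40 over 71 genes of up to 500 bp and of -0.01 and 0.01 over 9878 genes over 1000 bp. Over the 78 nuclear members, Spearman's rho between length and ratio was -0.44 in group 3 and 0.51 in group 2, and -0.09 and 0.04 over the 11324 other genes. These are descriptions across genes of the same libraries, which share depth and preparation and are not replicates. The 2 libraries in which short members were high, labelled KO in group 3 and WT in group 2, were also those with more counts in their sorted group: 9689339 in the library labelled KO and 8043077 in WT of group 3, and 8964120 and 10299863 in group 2. The 95 measured cytosolic ribosomal protein genes, known for short transcripts as a class, lay at medians of 0.21 (group 3) and -0.12 (group 2), and 13 of them (13.7%) met the same rule as the 16 members. Among the 34 nuclear members over 750 bp the medians were 0.13 in group 3 and -0.03 in group 2. The part of fragment size, depth or RNA quality in the shift was not tested.

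**Figure D3:**
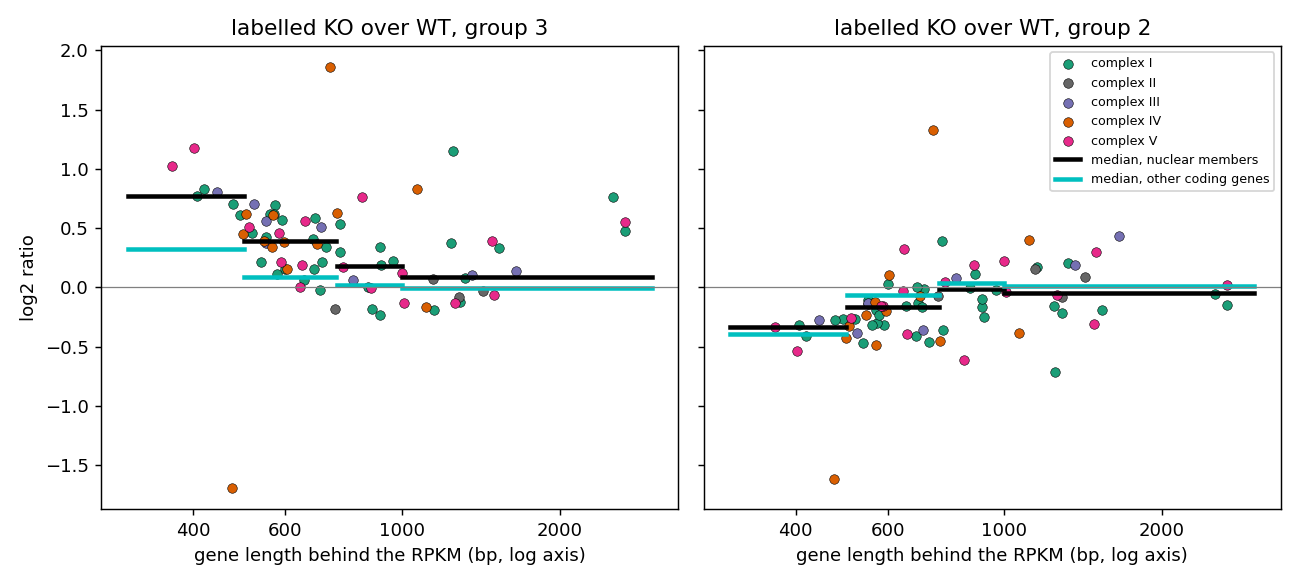
Log2 ratios of the library labelled KO over WT for the 78 measured nuclear members (points, coloured by complex) against the gene length behind the deposited RPKM, in group 3 (left) and group 2 (right); black lines are medians of the members and cyan lines medians of other protein-coding genes in 4 length classes. The shortest class lies at 0.77 and -0.34 for the members and at 0.33 and -0.40 for the other genes, and the longest class near 0.

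To ask which members differed by genotype label in the 4 libraries together, edgeR's quasi-likelihood test was run on all measured genes in an additive model with sorted group as covariate, with Benjamini-Hochberg adjustment. By this test 0 members rose in the libraries labelled KO, where 2.95% of all genes did, and 1 fell, where 1.87% did. Without adjustment 6 of the 89 members had a p under 0.05 (1649 of 12490 genes), and DESeq2 and limma-voom called 0 members either way, where they called 179 and 500 of the 12490 genes. The fitted median was log2 0.10 over the members and 0.00 over all genes. The additive model fits 1 genotype effect over both sorted groups, so opposite ratios in group 3 and group 2 partly cancel in it. The member that fell was Cox6b2 (ENSMUSG00000051811, chr7:4751792-4753094), the testis isoform of a complex IV subunit that faces the intermembrane space. It had 1.89 CPM (18 counts) in the library labelled KO and 7.24 CPM (59 counts) in WT of group 3, and 1.59 CPM (14 counts) and 5.91 CPM (62 counts) in group 2. Both libraries labelled KO were lower than both WT libraries, with ratios of 0.261 (0.145 to 0.449) and 0.269 (0.139 to 0.485). The fitted log2 fold was -1.91 (SE 0.62) with an edgeR adjusted p of 0.0494, and over the alternatives the adjusted p lay between 0.0361 and 0.510. The call was lost with DESeq2's size factors (adjusted p 0.0566), with another filter on low counts (edgeR filterByExpr, adjusted p 0.0854), without the covariate (adjusted p 0.229), under DESeq2 (adjusted p 0.349) and limma-voom (adjusted p 0.223), and without any of the 4 libraries. Its ubiquitous counterpart Cox6b1 was far higher, with 133.7 and 86.8 CPM in the library labelled KO and in WT of group 3 and 103.1 and 129.5 CPM in group 2.

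Members past 2-fold with an interval excluding 1 were few. In group 3, 4 stood higher (2.17% of all genes) and 1 lower (5.60%), and in group 2, 1 stood higher (6.45%) and 1 lower (2.44%). Cox4i2 (ENSMUSG00000009876, chr2:152754173-152765037), the isoform of Cox4i1 known from lung and from low oxygen, was higher in both, at 21 counts in the library labelled KO against 2 in WT of group 3, and at 13 against 3 counts in group 2. The ratios were 8.99 (2.20 to 79.1) and 5.15 (1.42 to 28.2), their edgeR adjusted p for the shared effect was 0.483, and all 4 values were under 3 CPM. Cox6b2 was the lower member in both sorted groups. Atp5k, Ndufb2 and Atp5mpl were the other members past 2-fold in group 3. Cox7a2l, with ratios of 0.893 (0.833 to 0.956) in group 3 and 1.32 (1.24 to 1.41) in group 2, has a pseudogene copy, Gm6969, that is 97.95% identical over 342 bp; this copy had 59 and 44 counts in the libraries labelled KO of group 3 and group 2 and 0 in both WT libraries.

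**Figure D4:**
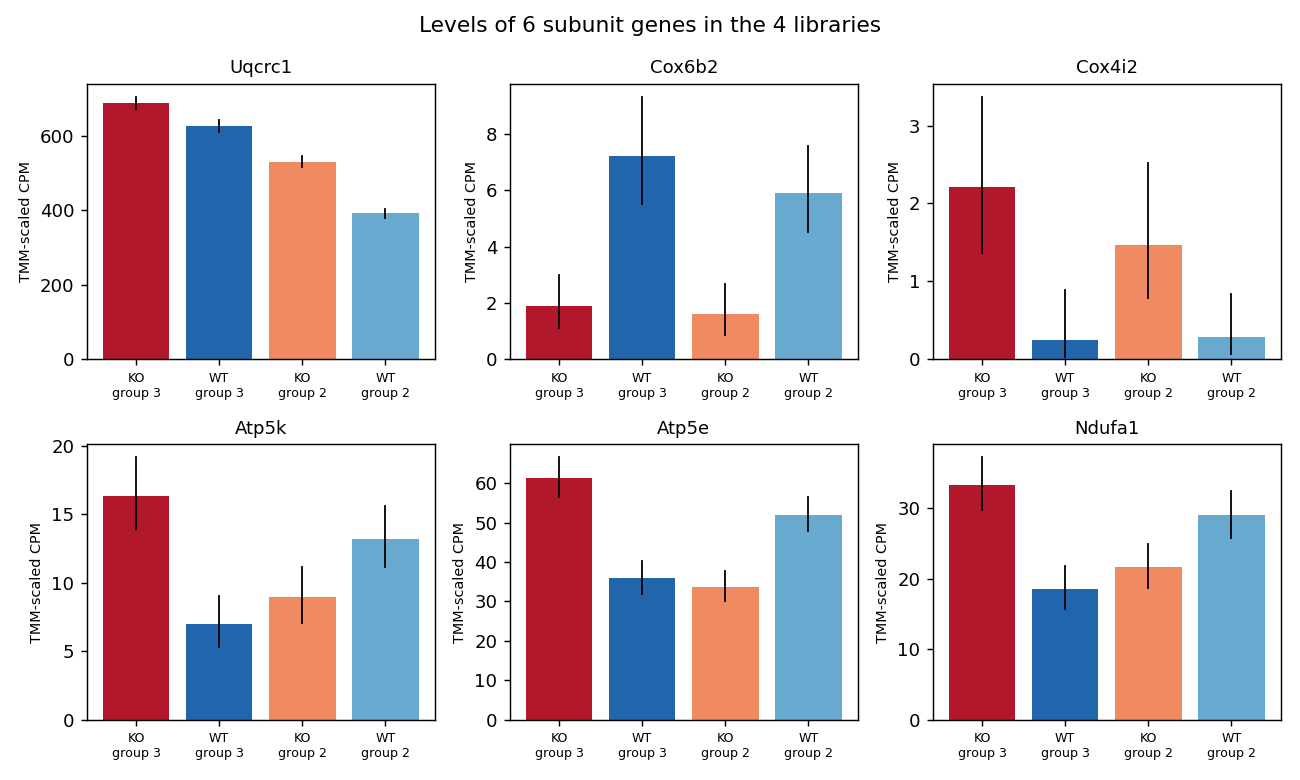
TMM-scaled CPM of 6 members in the 4 libraries, bars with exact 95% counting intervals (lines), each axis starting at 0. Cox6b2 is low and Cox4i2 high in both libraries labelled KO, Uqcrc1 is highest in group 3, and Atp5k, Atp5e and Ndufa1 are highest in the group 3 library labelled KO and in WT group 2.

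The mitochondrial genes took 0.538% of the counts in the group 3 library labelled KO (0.533 to 0.543), 0.656% in WT group 3 (0.650 to 0.661), 0.829% in the group 2 library labelled KO (0.823 to 0.835) and 0.770% in WT group 2 (0.764 to 0.775). The library labelled KO thus stood below WT in group 3 and above it in group 2, the reverse of the nuclear medians. Over the 11 measured genes the median log2 ratio of the library labelled KO over WT was -0.15 in group 3 and 0.17 in group 2; over the 7 with at least 200 counts in a library it was -0.20 and 0.09. mt-Cytb, the cytochrome b of complex III, was the highest, with 1865 CPM in the library labelled KO and 2593 in WT of group 3, and 3048 and 2856 CPM in group 2. Its ratios were 0.719 (0.705 to 0.734) and 1.07 (1.05 to 1.09). mt-Co1, the catalytic subunit of complex IV, had 1691 and 1944 CPM in group 3 and 2829 and 2461 CPM in group 2. The complex I genes mt-Nd4 and mt-Nd5 had ratios of 0.854 and 0.738 in group 3 and of 0.949 and 0.982 in group 2. mt-Nd1 and mt-Nd2, at the start of the coding region, stood higher in both libraries labelled KO, at 1.15 and 1.12 in group 3 and at 1.251 and 1.456 in group 2. mt-Nd6, the gene on the opposite strand to the others, had 31.8 and 35.4 CPM in group 3 and 38.6 and 46.7 CPM in group 2.

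The neighbouring genes mt-Co2, mt-Atp8, mt-Atp6, mt-Co3, mt-Nd3 and mt-Nd4l held between 0 and 182 counts in any library, although they lie between mt-Co1 and mt-Nd4, with at least 15854 and 2552 counts. mt-Atp8 had the most, at 182 and 131 counts in the library labelled KO and in WT of group 3 and 113 and 149 in group 2. mt-Co2 had 63, 36, 47 and 49 counts in the library labelled KO and WT of group 3 and then of group 2, mt-Co3 had 38, 36, 38 and 38, mt-Atp6 had 36, 35, 54 and 37, mt-Nd3 had 3, 1, 2 and 7, and mt-Nd4l had 0 in all. mt-Atp6 was the member of this block whose interval excluded 1 between genotypes, with ratios of 0.881 (0.537 to 1.44) in group 3 and 1.74 (1.12 to 2.71) in group 2. Copies of this block stand on chromosome 1 as pseudogenes, identical to mt-Co2 over 681 bp, to mt-Atp6 over 678 bp, to mt-Co3 over 783 bp and to mt-Nd4l over 294 bp, and 99.7% identical to mt-Nd3 over 345 bp. Those pseudogenes themselves had at most 23 counts in a library. The first 40 bases of mt-Nd3 and of its chromosome 1 copy show how close they are, with the base that differs in capitals.
mt-Nd3: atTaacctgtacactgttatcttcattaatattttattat
Gm28438: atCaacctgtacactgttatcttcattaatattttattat
A read that misses such a base is the same for both places, so the values of these 5 genes, and of the 876 bp of mt-Nd4 that are copied too, are uncertain. mt-Co1 has a longer but less exact copy on chromosome 2, 97.6% identical over 1545 bp, with at most 1 count in a library, so part of its reads may be shared too. No copy of mt-Atp8 was found at the same limits, but it overlaps mt-Atp6 on the same strand. In all, 41 members (34 nuclear, 7 mitochondrial) shared at least 100 bp at 97% identity or more with another annotated gene, and 35 overlapped another listed gene. How multiply placed reads were counted is not given in the sources used here.

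**Figure D5:**
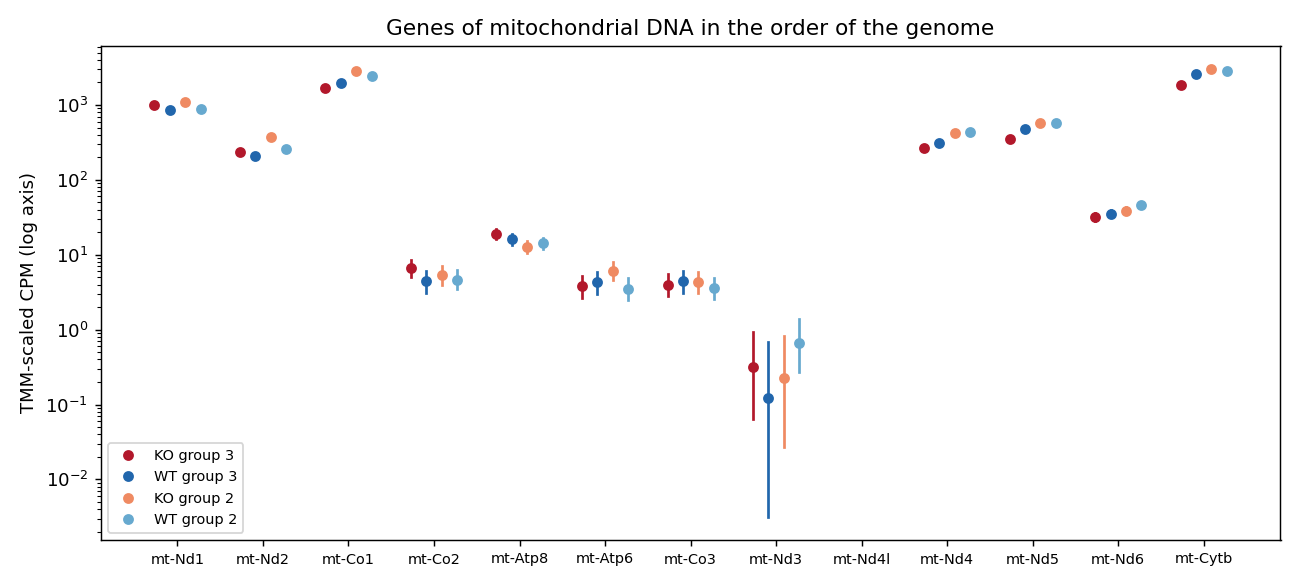
TMM-scaled CPM (log axis) of the 13 mitochondrial genes in the order of the genome, 1 point per library with its exact 95% counting interval; libraries with 0 counts are not drawn. The block between mt-Co2 and mt-Nd4l lies at or below 19.1 CPM, while mt-Nd1, mt-Co1 and mt-Cytb reach 1108, 2829 and 3048 CPM.

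Between group 3 and group 2, 5 of the 11 measured mitochondrial genes and a nuclear core gene of complex III changed. In the same edgeR quasi-likelihood model with Benjamini-Hochberg adjustment, 5 members fell in group 3 (1.14% of all genes did) and 1 rose (2.21% did). The 5 that fell are all mitochondrial: mt-Co1 by a log2 fold of -0.54 (SE 0.12, adjusted p 0.000631), mt-Nd4 by -0.57 (SE 0.14, adjusted p 0.00343), mt-Cytb by -0.42 (SE 0.12, adjusted p 0.0151), mt-Nd5 by -0.49 (SE 0.14, adjusted p 0.0161) and mt-Nd2 by -0.47 (SE 0.14, adjusted p 0.0405). Each was lower in group 3 in both genotypes, as the CPM above show for mt-Co1 and mt-Cytb. All 5 stand on the same strand of mitochondrial DNA, and whether they changed separately from each other was not tested. In the libraries labelled KO the ratios of these 5 genes ran between 0.598 and 0.639, and in WT between 0.710 and 0.908. mt-Nd1 had a fitted log2 fold of -0.09 (adjusted p 0.980 by the same edgeR test) and mt-Nd6 of -0.34 (adjusted p 0.602). Of the genes with few counts, mt-Atp8 (0.38), mt-Co2 (0.12) and mt-Co3 (0.09) had positive values and mt-Atp6 (-0.21) a negative value. The gene that rose was Uqcrc1 (ENSMUSG00000025651, chr9:108936633-108949623), a core protein of complex III, with 689.1 CPM in the library labelled KO and 626.9 in WT of group 3, and 530.9 and 392.6 CPM in group 2. Both group 3 libraries exceeded both group 2 libraries, and the fitted log2 fold was 0.53 (SE 0.14, edgeR adjusted p 0.00606). DESeq2 called Uqcrc1 (adjusted p 0.0281), mt-Co1 (adjusted p 0.0163) and mt-Nd4 (adjusted p 0.0149), and limma-voom called all 6. Without the covariate all 6 were lost (adjusted p between 0.380 and 0.773 by edgeR). With edgeR filterByExpr mt-Nd2 (adjusted p 0.142), mt-Nd5 (adjusted p 0.0933) and mt-Cytb (adjusted p 0.139) were lost, mt-Cytb also at 10 CPM (adjusted p 0.134), mt-Nd2 with DESeq2's size factors (adjusted p 0.0577), and mt-Nd2 and mt-Nd5 without a filter (adjusted p 0.181 and 0.0552). Leaving out any library, in a model of sorted group alone, left 0 of these calls. Without the group 2 library labelled KO, mt-Nd2 stood at -0.19, and without WT group 2 at -0.73 and Uqcrc1 at 0.31. Without the group 3 library labelled KO, mt-Cytb stood at -0.19 and mt-Nd5 at -0.27, and without WT group 3 mt-Cytb stood at -0.66.

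For the nuclear members the step between sorted groups restates the 4 libraries already described. The median log2 ratio of group 3 over group 2 was 0.16 in the libraries labelled KO and -0.33 in WT, against -0.01 and 0.00 over all genes; the ratios share their libraries with those between genotypes. In the libraries labelled KO 41 of the 78 stood higher with an interval excluding 1 (24.4% of all genes) and 18 lower (24.2%), and in WT 8 stood higher (23.8%) and 58 lower (24.1%). Complex II was nearly level again, at -0.11 and -0.05. For the 11 measured mitochondrial genes the medians were -0.63 in the libraries labelled KO, where 9 stood below 0 and 2 above, and -0.14 in WT, where 8 stood below and 3 above. Over the 7 with at least 200 counts, a choice made after the data were seen, they were -0.65 and -0.28. Past 2-fold, 0 members stood higher (1.85% of all genes) or lower (5.99%) in the libraries labelled KO; in WT 0 stood higher (5.22%) and 1, Ndufb2, lower (1.86%).

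Genes that serve the chain without being counted as subunits by symbol were read from the same fit, in lists. Of 22 measured electron carriers and subunits with other names, 0 were called by edgeR for genotype (4 had an unadjusted p under 0.05) and the fitted median was log2 -0.01. Coq2, which attaches the side chain of ubiquinone, rose in group 3 by log2 0.70 (SE 0.20, edgeR adjusted p 0.0168). Usmg5, a small ATP synthase subunit in that list, had 45.9 and 24.5 CPM in the library labelled KO and in WT of group 3 and 23.6 and 42.8 CPM in group 2, the order of libraries seen for Atp5k. Among 48 assembly factors, Cmc2, a factor of complex IV assembly, fell in the libraries labelled KO by -0.74 (SE 0.21, edgeR adjusted p 0.0162), with log2 ratios of -0.26 in group 3 and -1.19 in group 2. Among 14 regulators of mitochondrial genes, Nfe2l2, which encodes the stress factor NRF2, rose in the libraries labelled KO by 0.67 (SE 0.16, edgeR adjusted p 0.00145). The edgeR test called 0 of 24 genes of the tricarboxylic acid cycle and pyruvate dehydrogenase, 0 of 28 of mitochondrial DNA maintenance and transcription, 0 of 76 mitochondrial ribosomal proteins and 0 of 22 of mitochondrial import, for either effect. Over all genes 2.95% rose and 1.87% fell with genotype and 2.21% and 1.14% with the sorted group. DESeq2 called 0 genes of any list in this paragraph, Coq2, Cmc2 and Nfe2l2 included, and limma-voom called 1 gene each among the carriers (sorted group), the assembly factors (genotype) and the regulators (genotype), and 0 in the other lists. At an unadjusted p under 0.05 the lists of the cycle, mitochondrial DNA, ribosomal proteins and import had 4, 3, 3 and 0 genes for genotype (1649 of 12490 genes) and 1, 2, 1 and 0 for the sorted group (1331 of 12490). The median log2 ratios of the tricarboxylic acid cycle list were -0.09 in group 3 and -0.08 in group 2, and those of the mitochondrial ribosomal proteins 0.15 and -0.05. Of those 76 ribosomal protein genes, 33 stood higher in the library labelled KO in group 3 with an interval excluding 1 (24.5% of all genes), and 31 stood lower in WT group 3 than in WT group 2 (24.1%). Tfam, which packages mitochondrial DNA, had a fitted genotype effect of 0.02 and the mitochondrial RNA polymerase gene Polrmt of 0.09. Nrf1 and Gabpa, whose factors bind the promoter motifs printed above, had fitted genotype effects of 0.05 and 0.07 and sorted group effects of -0.02 and 0.02.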

How the data were processed

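Sorted thymocytes gave 4 RNA libraries, grouped by title. The authors deposited gene counts and, for each library, RPKM. The submitters' processing notes name TopHat2 2.0.12 and mm10. Which program counted the reads, on which annotation and strand, is not given in the sources used here. Every count entry was an Ensembl gene; 34490 of 35275 IDs matched GENCODE M21, and 785 did not. Mitochondrial rRNA and tRNA genes were not analysed here.

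Counts were scaled with edgeR 4.0.16 (TMM; R 4.3.3). A log2 ratio is that of TMM-scaled CPM plus 0.5; intervals are exact conditional binomial (Clopper-Pearson, 95%) without the pseudocount, and medians of ratios use the log2 values. The quasi-likelihood F test used an additive model with 1 residual degree of freedom (common dispersion 0.0288, spread shrunk fully to the trend) and a threshold of 0.05; it was tested on simulated counts. DESeq2 1.42.0, limma 3.58.1 (voom), DESeq2 size factors, library totals, TMM without mitochondrial genes, other filters, a pseudocount of 2 and left-out libraries were alternatives. Copies were found by alignment of annotated transcripts. With 1 library per group, no spread between replicates was measured. The residual of the model is the part of the genotype ratio that differs between sorted groups, pooled over genes. The p-values rest on that residual. Nothing says that libraries came from separate mice, so the differences between libraries may be technical.

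The members and lists were chosen with earlier results of these data known. Named were all mitochondrial genes, called members, members past 2-fold, the highest and lowest mean genotype ratio in each complex, core subunits, isoform sets and called genes of the lists. The 5 widest opposite ratios, Usmg5, Tfam, Polrmt, Nrf1, Gabpa and Gm6969 were named after their values were seen. The values of 1 core subunit gene are not reported here.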

Additional observations from a re-analysis of the deposited data

Results flagged for a closer look

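A total of 16 members stood higher in the library labelled KO in group 3 and lower in it in group 2, 5 of complex I, 2 of complex III, 5 of complex IV and 4 of complex V, and with 1 library per group this difference between sorted groups was not tested. The log2 ratio in group 3 exceeded that in group 2 by 1.86 for Ndufb2, 1.71 for Atp5k, 1.38 for Atp5e, 1.36 for Atp5mpl and 1.24 for Ndufa1, also untested.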

How the results depend on the processing

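No paired analysis was possible because the labels carry no replicate numbers and each group holds 1 library. The count of members that fell with genotype, 1 in the model described, was 0 with DESeq2 size factors, edgeR filterByExpr, 10 CPM in 1 library, a model without the covariate, DESeq2 and limma-voom, and 0 to 0 with each library left out; at 10 CPM Cox6b2 is not tested, and for the rest the cause was not tested. Members higher in group 3 numbered 0 without the covariate and 0 to 0 with each library left out; those lower in group 3 numbered 3 without a filter, 2 with filterByExpr, 0 without the covariate, 2 under DESeq2 and 0 to 0 with each library left out. Leaving out a library also drops the covariate. Among nuclear members over 750 bp, an alternative chosen after seeing the data, the median log2 ratio was 0.13 between genotypes in group 3, 0.0085 between sorted groups in the libraries labelled KO and -0.12 in WT. The 16 members of opposite ratio numbered between 12 (10 CPM) and 21 (no filter). No alternative run turned the direction of a result given here. Depth limits members with few counts: Cox4i2, Ndufb2 and mt-Atp6 rest on at most 60 counts in a library.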
